A study of Homo sapiens with 23 samples.

Results

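The genes described here encode the cyclins, the kinase, the phosphatase and the transcription factors that take a cell from G1 into S phase. They are CCND1 (cyclin D1), CCNE1 and CCNE2 (cyclins E1 and E2), CDK2, CDC25A, E2F1, E2F2, E2F3, E2F7 and E2F8. Every probe set that the deposited tables assign to 1 of these symbols was taken, which gave 22 of the 54613 probe sets tested and 10 of 20066 genes with 1 symbol. All 22 were kept, with no filter on low values.

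The study used 23 Affymetrix arrays to follow HEK293T cells after transfection with polyplexes, particles of a cationic polymer and plasmid DNA. The polymer was 25 kDa branched polyethylenimine (bPEI), named for the 24 h arrays only as PEI, and the plasmid was pEGFP-LUC, which carries reporters for green fluorescent protein (GFP) and luciferase. At 2 h, treated cells (3 arrays) and cells that had received no polyplexes (2 arrays) were harvested without sorting into GFP fractions. At 8, 16 and 24 h, treated cultures were sorted into GFP-positive and GFP-negative cells, with 3 arrays for each population and time. GFP-negative cells are therefore not untreated cells: they met the same polyplexes and passed through the same sorter. All 8 groups are the same line, derived from human embryonic kidney and expressing the large T antigen of SV40, a viral protein that binds the RB family. GFP-positive describes cells in which the reporter was visible at harvest, so a cell that took up plasmid without visible GFP falls in the other fraction. RNA came from Trizol extraction, followed by column purification at 2, 8 and 16 h and not at 24 h.

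As background, D-type cyclins with CDK4 and CDK6 begin to phosphorylate RB in G1, which releases the activators E2F1, E2F2 and E2F3. These switch on cyclin E, CDC25A and genes for DNA replication. Cyclin E binds CDK2, CDC25A removes inhibitory phosphates from CDK2, and the complex phosphorylates more RB and starts S phase. E2F7 and E2F8 are atypical family members, made late in the same wave, that repress E2F targets. In cells with large T antigen, RB is bound by the viral protein, so the first step of this circuit does not work as in most cells.

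Because several of these genes are themselves E2F targets in the textbook scheme, the 250 bases before the start were searched for 8-base E2F-type sequences. The spellings searched were TTTCCCGC, TTTGGCGC, TTTCGCGC and TTTGCCGC, on both strands. Sequences and coordinates are RefSeq's, on GRCh38.p14. Promoters are reported for 6 of the 10 genes: CCNE1, E2F1, E2F2, E2F3, E2F7 and CDC25A. Those of CCNE2, E2F8, CCND1 and CDK2 are not reported. Of the 6 genes, 4 held at least 1 match in a reported promoter (E2F1, E2F2, E2F3 and CDC25A). Counted per promoter and not per gene, 2.79% of all 35116 promoters searched held a match (979 promoters). Shown are E2F2, CDC25A and E2F7, whose transcripts rose in the comparisons that follow, and E2F1, whose transcript did not pass the test. Each is read 5' to 3' along its gene, with matches in capitals.
E2F2 (chr1:23531234-23531483, minus strand): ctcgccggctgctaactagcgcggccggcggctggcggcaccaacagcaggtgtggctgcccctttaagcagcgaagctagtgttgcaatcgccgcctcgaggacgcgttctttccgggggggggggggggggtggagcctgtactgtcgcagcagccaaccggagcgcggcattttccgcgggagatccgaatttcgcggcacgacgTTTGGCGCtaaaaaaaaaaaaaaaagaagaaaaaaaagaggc
CDC25A (chr3:48188418-48188667, minus strand): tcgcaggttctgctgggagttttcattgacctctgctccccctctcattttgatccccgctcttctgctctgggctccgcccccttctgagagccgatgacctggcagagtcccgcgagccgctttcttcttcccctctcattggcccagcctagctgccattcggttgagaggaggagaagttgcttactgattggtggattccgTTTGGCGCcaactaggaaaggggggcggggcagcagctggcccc
E2F1 (chr20:33686386-33686635, minus strand): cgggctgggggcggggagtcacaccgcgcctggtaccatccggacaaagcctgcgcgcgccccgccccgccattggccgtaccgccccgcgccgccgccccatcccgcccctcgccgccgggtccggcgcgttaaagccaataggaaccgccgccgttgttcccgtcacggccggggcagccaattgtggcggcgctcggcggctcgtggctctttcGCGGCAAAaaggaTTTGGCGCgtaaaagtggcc
E2F7 (chr12:77065570-77065819, minus strand): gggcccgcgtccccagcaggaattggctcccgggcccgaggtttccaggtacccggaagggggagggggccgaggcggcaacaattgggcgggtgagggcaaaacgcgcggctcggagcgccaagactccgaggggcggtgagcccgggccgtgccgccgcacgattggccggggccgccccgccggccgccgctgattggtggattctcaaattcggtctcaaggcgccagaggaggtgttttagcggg
In E2F2 the match TTTGGCGC ended 35 bases before the start, and in CDC25A the same letters ended 37 bases before it. E2F1 held 2 matches, TTTGGCGC and, on the opposite strand, TTTGCCGC. The first E2F3 promoter listed held TTTCCCGC on the opposite strand. The second E2F3 promoter and the CCNE1 and E2F7 windows held none of the 4 spellings. Of the genes without a reported promoter, E2F8 lies at chr11:19224063-19241655, CCND1 at chr11:69641156-69654474 and CDK2 at chr12:55966830-55972789. A match is a run of letters and was not tested as a binding site.

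Values are log2 expression as the authors deposited them. Groups were set against each other within a time only, since the arrays of each time appear to have been normalized apart: the array medians spanned 4.66 to 4.71 among 8 h arrays and 4.96 to 5.10 among 16 h arrays. limma was fitted on the 17 arrays of 2, 8 and 16 h together, and the 24 h arrays were fitted apart. To pass, a probe set needed an adjusted p below 0.05, with the Benjamini-Hochberg adjustment made across all 54613. Among HEK293 markers, NEFL, NEFM and INA read 7.37 or more on every array and PAX2 4.64 to 5.52. Of the blood and stromal markers, PTPRC, LYZ and LUM read at most 3.67 on any array, under every array median, and COL1A1 read 6.20 to 7.26. At 8 h, NEFL and ENO2 fell among these markers (log2 -0.50 and -0.71), and at 16 h NEFL and ENO2 fell again (-0.37 and -0.42). At either time 0 of 5 haematopoietic and 0 of 5 stromal and endothelial markers passed. NEFL was also lower in treated than in untreated cells at 2 h (log2 -0.58, limma adjusted p = 0.0183). The 3' minus 5' difference of the ACTB control probe sets, a measure of RNA integrity, overlapped between GFP-positive and GFP-negative arrays at 8 and 16 h, and was 2.68 in treated 2 h replicate 1 against 1.23 to 1.44 on the other 2 h arrays. The source name of GFP-positive replicate 3 of 8 h gives 16 h instead, while its title and description give 8 h, which was followed. Results at 8 h are also given without this array.

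Several members of the circuit were higher in GFP-positive than in GFP-negative cells. E2F2 and E2F8 rose in GFP-positive cells at 8 h, and CCNE2, E2F2, E2F7, E2F8 and CDC25A rose at 16 h. Each did so on at least 1 of its probe sets, by 1.27-fold to 1.81-fold. In this fit no probe set of E2F1, E2F3, CDK2, CCNE1 or CCND1 passed at either time. With the replicate number as a block, CCNE1 also passed as higher at 8 h, as did CCNE2 and CDC25A, and CCND1 passed as lower. The calls depended on which arrays gave the spread: with all 23 arrays in 1 limma fit, 0 of 22 member probe sets passed at 16 h and 1, E2F2, at 8 h, where 0.0586% and 2.14% of all probe sets passed. With the arrays of each time fitted alone, 1 member probe set passed at 16 h, E2F8, and 1 at 8 h, E2F2. Of all probe sets, 1.24% and 3.37% passed in these fits.

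**Figure D1:**
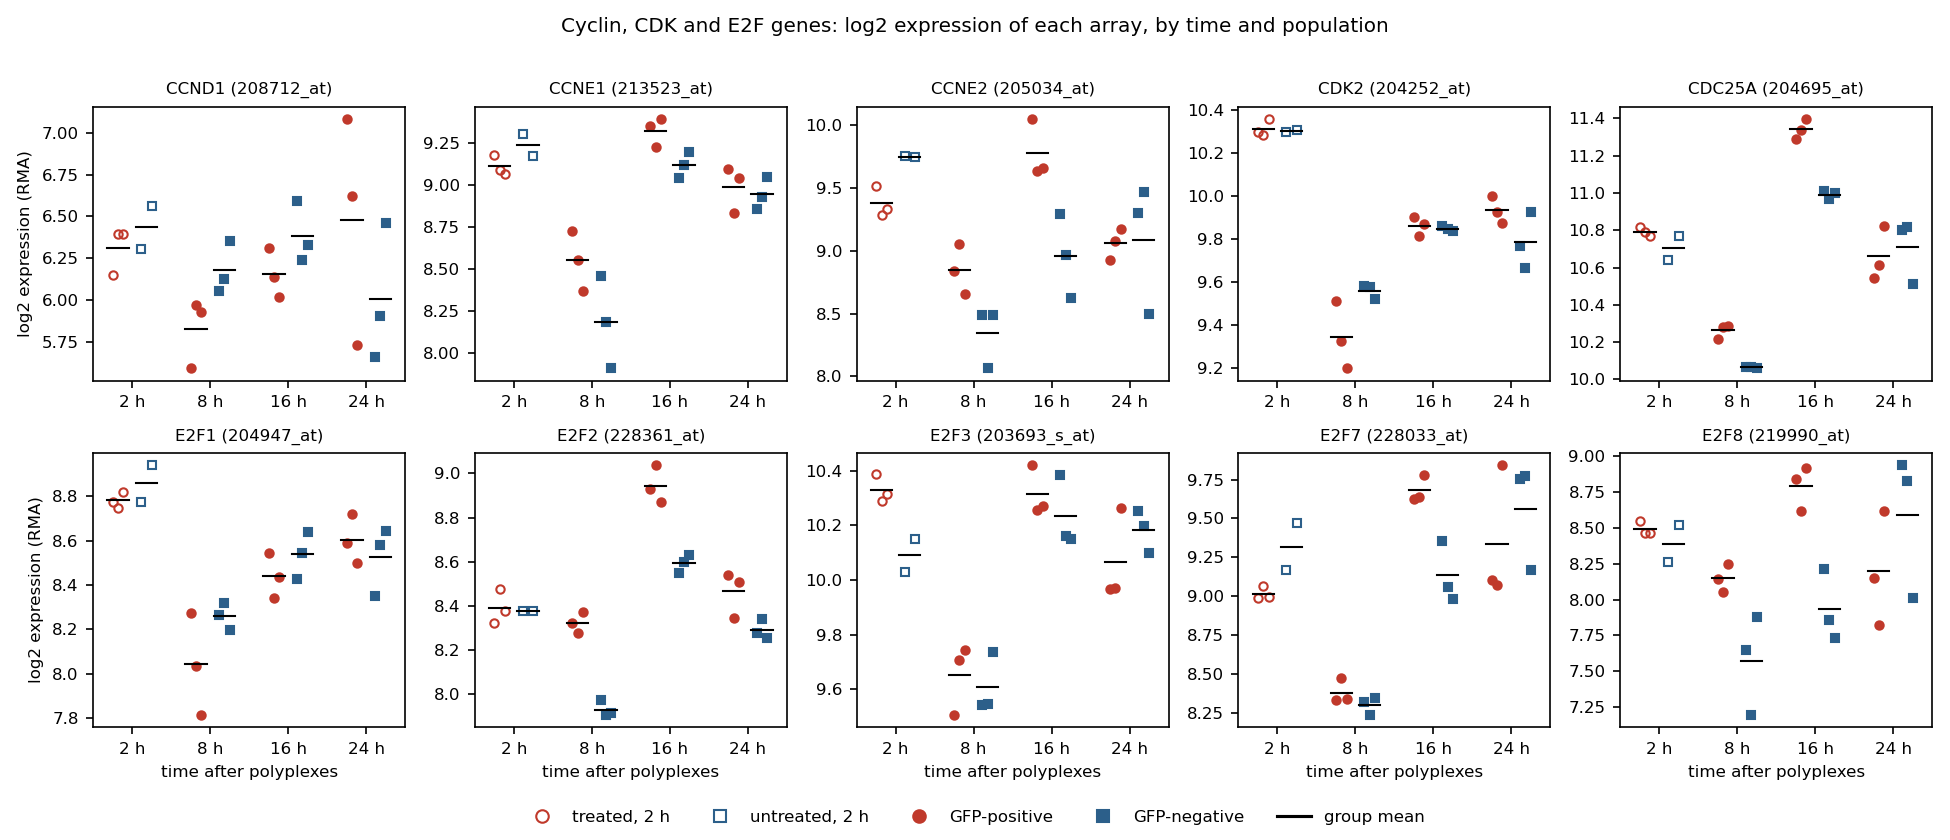
Log2 expression of the member probe set with the highest mean of each gene on all 23 arrays (24 h as labelled), with time after polyplexes on the x axis, one point per array and bars at group means; levels are comparable only within a time. At 16 h the 3 GFP-positive arrays lie above the 3 GFP-negative arrays for CCNE2, E2F2, E2F7, E2F8 and CDC25A, and at 24 h the labelled groups overlap for E2F7 and E2F8.

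At 2 h, before sorting, 0 of 22 member probe sets passed in limma, where 0.549% of all probe sets passed, and 3 had an unadjusted p under 0.05, as did 5316 of all 54613. Those were E2F3 203693_s_at, E2F7 228033_at and CDC25A 1555772_a_at. E2F7 228033_at read 8.99, 9.06 and 9.00 in treated cells, against 9.17 and 9.47 in untreated cells, a log2 difference of -0.30 (SE 0.114, limma adjusted p = 0.335). CDC25A 1555772_a_at read 9.32, 9.41 and 9.60 in treated cells, against 9.72 and 9.92 in untreated cells (log2 -0.38, SE 0.151, adjusted p = 0.378). Neither of these differences passed. E2F3 203693_s_at lay the other way, with 10.39, 10.29 and 10.32 in treated cells against 10.03 and 10.15 in untreated cells (log2 0.24, SE 0.105, adjusted p = 0.451). The median log2 difference of the member probe sets was -0.07, against 0.01 over all probe sets. With 3 arrays against 2, the standard errors at 2 h were larger than those of the sorted groups (0.169 for E2F8, against 0.151 at 8 and 16 h).

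At 8 h, 2 of 22 member probe sets were higher in GFP-positive cells and 0 lower, where 2.75% of all probe sets were higher and 4.15% lower. E2F2, an activator E2F, read 8.32, 8.28 and 8.37 in GFP-positive cells, against 7.97, 7.91 and 7.91 in GFP-negative cells on 228361_at. Every GFP-positive array was above every GFP-negative one, and the log2 difference was 0.39 (SE 0.0745, limma adjusted p = 0.00456), or 1.31-fold. It also passed with all 23 arrays in the fit (adjusted p = 0.0119). The other 2 E2F2 probe sets did not pass: 207042_at lay at log2 -0.15 and 235582_at at 0.15, and 207042_at was below its own array's median on 6 of 23 arrays.

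E2F8, an atypical repressor of the family, read 8.14, 8.05 and 8.25 in GFP-positive cells at 8 h, against 7.65, 7.20 and 7.88 in GFP-negative cells. Every GFP-positive array was above every GFP-negative one, and the low GFP-negative replicate 2 widened the gap. The log2 difference was 0.57 (SE 0.151, limma adjusted p = 0.0303), or 1.49-fold. This call was lost without GFP-negative replicate 2 or without any 1 of the 3 GFP-positive arrays, with all 23 arrays (adjusted p = 0.164), and with the 8 h arrays fitted alone (adjusted p = 0.0804). Without GFP-positive replicate 3, the array with the differing source name, 1 member probe set passed at 8 h, that of E2F2. In that fit 4.94% of all probe sets passed. E2F7 228033_at, the companion repressor, read 8.33, 8.47 and 8.33 in GFP-positive cells and 8.32, 8.24 and 8.35 in GFP-negative cells, a difference of log2 0.08 (SE 0.102, adjusted p = 0.729), and the groups overlapped.

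On their probe sets with the highest mean, the cyclin E genes leaned higher in GFP-positive cells at 8 h without passing. Their second probe sets overlapped between groups: CCNE1 242105_at lay at log2 -0.18 (limma adjusted p = 0.355) and CCNE2 211814_s_at at 0.23 (adjusted p = 0.642). CCNE2, the second cyclin E gene, read 8.84, 9.05 and 8.66 in GFP-positive cells, against 8.49, 8.06 and 8.48 in GFP-negative cells on 205034_at (log2 0.50, SE 0.162, limma adjusted p = 0.0741). CCNE1 213523_at read 8.73, 8.56 and 8.37 in GFP-positive cells, against 8.46, 8.19 and 7.91 in GFP-negative cells (log2 0.37, SE 0.120, adjusted p = 0.0786). The groups of CCNE2 205034_at did not overlap. Those of CCNE1 213523_at did, yet each GFP-positive array was above the GFP-negative array of the same replicate number. CDC25A, the phosphatase that activates CDK2, did not overlap on any of its 3 probe sets: 204695_at read 10.22, 10.28 and 10.29 in GFP-positive cells against 10.07, 10.07 and 10.06 in GFP-negative cells (log2 0.20, SE 0.0694, adjusted p = 0.0999). Its 1555772_a_at lay at log2 0.34 (adjusted p = 0.149) and its 204696_s_at at 0.23, and neither passed. In all, 6 member probe sets were higher and 4 lower with no overlap between groups at 8 h, where 10.8% and 12.7% of all probe sets were.

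Lower values in GFP-positive cells at 8 h were found for CCND1, CDK2 and E2F1, and none passed. CCND1, the G1 cyclin partner of CDK4 and CDK6, read 5.59, 5.97 and 5.93 in GFP-positive cells, against 6.06, 6.13 and 6.35 in GFP-negative cells on 208712_at (log2 -0.35, SE 0.129, limma adjusted p = 0.121). Its 208711_s_at read 5.31, 5.33 and 5.52 against 5.57, 5.79 and 5.94 in GFP-negative cells (log2 -0.38, adjusted p = 0.273). On both probe sets every GFP-positive array was below every GFP-negative one. CDK2 204252_at read 9.51, 9.32 and 9.20 in GFP-positive cells, against 9.58, 9.57 and 9.52 in GFP-negative cells (log2 -0.21, SE 0.0800, adjusted p = 0.124). CDK2 211804_s_at lay at log2 -0.21 (adjusted p = 0.648) and CDK2 211803_at at 0.03 (adjusted p = 0.942), both with overlap. A CDK2 probe set passed as lower when GFP-positive replicate 1 was left out. E2F1, the founding activator of the family, lay at log2 -0.22 and -0.30 on its 2 probe sets (adjusted p = 0.243 and 0.205), and E2F3 at 0.04 and 0.17 (adjusted p = 0.851 and 0.492).

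Arrays of the same replicate number deviated together at 8 and 16 h, the least so replicate 2 of 16 h (correlation r = 0.163). A limma fit with the replicate number as a block was therefore also made. Under this replicate block, 7 member probe sets passed at 8 h, 5 higher and 2 lower, where 3.61% of all probe sets were higher and 5.79% lower. Beside E2F2 (adjusted p = 0.0139) and E2F8 (0.0173), the higher ones were CCNE1 213523_at (0.0194), CCNE2 205034_at (0.0436) and CDC25A 1555772_a_at (0.0312). The lower ones were both CCND1 probe sets, with adjusted p = 0.0334 for 208712_at and 0.0286 for 208711_s_at. At 16 h the same 6 probe sets passed with the block as without it.

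At 16 h, 6 of 22 member probe sets, of 5 genes, were higher in GFP-positive cells and 0 lower, where 2.47% of all probe sets were higher and 1.96% lower. Of all probe sets that passed at 16 h, 55.7% were higher; centring each array on its median made that 74.7% and quantile normalization 67.6%, and at 8 h quantile normalization moved it to 50.5%, against 39.9%. E2F8 read 8.84, 8.62 and 8.92 in GFP-positive cells, against 8.22, 7.86 and 7.73 in GFP-negative cells. The difference was log2 0.86 (SE 0.151, limma adjusted p = 0.00369), or 1.81-fold, the largest among the member probe sets at 16 h. E2F7 228033_at read 9.63, 9.64 and 9.78 in GFP-positive cells, against 9.36, 9.06 and 8.98 in GFP-negative cells, a difference of log2 0.55 (SE 0.102, adjusted p = 0.00518). Both atypical E2F genes thus stood apart at 16 h with no overlap. A second E2F7 probe set, 241725_at, lay at log2 -0.27 without passing (adjusted p = 0.347) and was below its own array's median on 6 of 23 arrays.

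CCNE2 205034_at read 10.05, 9.64 and 9.65 in GFP-positive cells at 16 h, against 9.29, 8.97 and 8.62 in GFP-negative cells. Every GFP-positive array was above every GFP-negative one, with a difference of log2 0.82 (SE 0.162, limma adjusted p = 0.00812), or 1.76-fold. Its second probe set, 211814_s_at, read 7.98, 7.82 and 7.51 in GFP-positive cells against 7.92, 7.54 and 6.74 in GFP-negative cells, where the groups overlapped and the difference did not pass (log2 0.37, adjusted p = 0.453). CCNE1 213523_at read 9.35, 9.22 and 9.39 in GFP-positive cells against 9.04, 9.12 and 9.19 in GFP-negative cells, a difference that did not pass although the groups did not overlap (log2 0.20, SE 0.120, adjusted p = 0.397). The other CCNE1 probe set, 242105_at, was below its own array's median on 23 of 23 arrays.

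CDC25A rose on 2 of its 3 probe sets at 16 h. On 204695_at the arrays read 11.29, 11.34 and 11.40 in GFP-positive cells, against 11.01, 10.97 and 11.00 in GFP-negative cells (log2 0.35, SE 0.0694, limma adjusted p = 0.00829). On 1555772_a_at they read 10.14, 9.78 and 9.77 in GFP-positive cells, against 9.74, 9.35 and 9.13 in GFP-negative cells (log2 0.49, SE 0.135, adjusted p = 0.0479). On the first of these probe sets the arrays of each group lay close together, and the groups did not overlap. The second probe set had the larger difference and the wider spread. It was close to the threshold and passed in only 1 of 6 fits that each left out 1 of the 16 h arrays. E2F2 228361_at read 8.93, 9.04 and 8.87 in GFP-positive cells against 8.55, 8.60 and 8.63 in GFP-negative cells (log2 0.35, SE 0.0745, adjusted p = 0.0125), or 1.28-fold, and lost its call without GFP-positive replicate 2. The probe sets of CCNE2, E2F7 and E2F8 and CDC25A 204695_at passed in all 6 such fits. E2F2 207042_at (log2 0.16, limma adjusted p = 0.509) and E2F2 235582_at (log2 0.01, adjusted p = 0.978) overlapped between groups and did not pass at 16 h.

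With all 23 arrays in the limma fit these 6 probe sets had adjusted p values of 0.0741 (E2F2), 0.0991 (CCNE2), 0.105 (E2F8 and CDC25A 204695_at), 0.165 (E2F7) and 0.205 (CDC25A 1555772_a_at). The differences are the same in both fits and the spread is not: the SE of E2F8 was 0.215 with the 24 h arrays and 0.151 without them. With the 16 h arrays fitted alone, limma gave an adjusted p of 0.0339 for E2F8, and of 0.0643 (E2F7), 0.0715 (CCNE2), 0.0848 (CDC25A 204695_at), 0.098 (E2F2) and 0.206 (CDC25A 1555772_a_at). Among members that did not pass at 16 h, CDK2 204252_at was at log2 0.01 (SE 0.0800), E2F1 at -0.10 and -0.19, E2F3 at 0.08 and -0.09, and CCND1 at -0.23 and -0.28. In all, 7 member probe sets were higher and 1 lower with no overlap at 16 h, where 8.07% and 13.1% of all probe sets were. The median member difference was log2 0.10, against -0.04 over all probe sets. At 8 h these were 0.06 and 0.00.

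**Figure D2:**
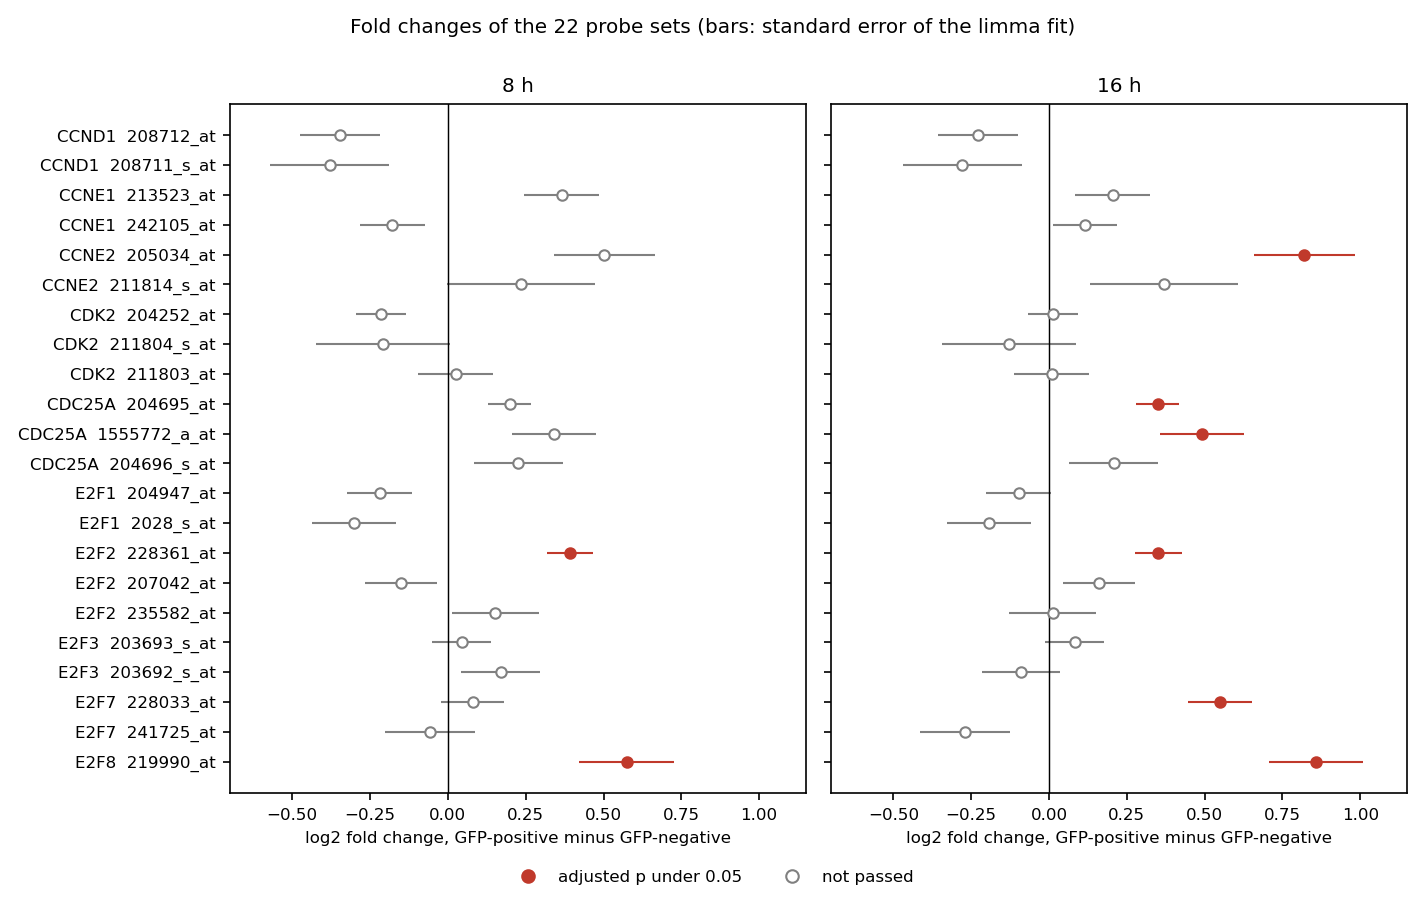
Log2 difference, GFP-positive minus GFP-negative, of all 22 member probe sets at 8 and 16 h, with bars of 1 SE from the limma fit of 17 arrays and filled symbols for adjusted p under 0.05. E2F8 and CCNE2 205034_at lie farthest to the right at 16 h (0.86 and 0.82), and both CCND1 probe sets lie left of 0 at both times.

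Whether the GFP difference itself changed between 8 and 16 h was tested as the difference of the 2 differences. None of the 22 member probe sets passed in limma, where 0.00183% of all probe sets passed, and 1 had an unadjusted p under 0.05, as did 4850 of all probe sets. That was E2F7 228033_at, whose difference was larger at 16 h by log2 0.47 (SE 0.144, limma adjusted p = 0.450). A gene that passed at 16 h and not at 8 h is therefore not shown to have changed between the times. Averaged over 8 and 16 h, a comparison added after the data were seen, 7 member probe sets were higher and 1 lower, where 5.26% and 7.57% of all probe sets were. E2F8 averaged log2 0.72 (SE 0.107, limma adjusted p = 0.000292), CCNE2 205034_at 0.66 (SE 0.115, adjusted p = 0.00100), E2F2 228361_at 0.37 (SE 0.0526, adjusted p = 0.000179) and CCNE1 213523_at 0.28 (SE 0.0846, adjusted p = 0.0340). The lower one was CCND1 208712_at, at log2 -0.29 (SE 0.0912, adjusted p = 0.0466). With all 23 arrays 6 of these 8 passed, and E2F7 228033_at (adjusted p = 0.122) and CCND1 208712_at (adjusted p = 0.342) did not.

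At 24 h, no member passed on the arrays as labelled. In limma 0 of 22 member probe sets passed, as did 0% of all probe sets, and 1 member had an unadjusted p under 0.05 (E2F3 203692_s_at, log2 -0.30), as did 1516 of all probe sets. E2F8 read 8.15, 7.82 and 8.62 on the arrays labelled GFP-positive, against 8.94, 8.83 and 8.01 on those labelled GFP-negative (log2 -0.40, SE 0.280). E2F7 228033_at read 9.10, 9.07 and 9.84 on the arrays labelled GFP-positive, against 9.75, 9.77 and 9.17 on those labelled GFP-negative (log2 -0.23, SE 0.246). In both genes GFP-positive replicate 3 and GFP-negative replicates 1 and 2 were the high arrays. CCND1 208712_at ran the other way on the same arrays, with 7.08, 6.62 and 5.73 on those labelled GFP-positive against 5.66, 5.90 and 6.46 on those labelled GFP-negative (log2 0.47, SE 0.341).

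The authors' deposited table for 24 h does not match those labels. Its group means equalled the means of the labelled arrays for 0 of 54675 probe sets at 24 h (tolerance 1e-06), and for all 54675 at 2, 8 and 16 h. In the authors' deposited table E2F8 had a log2 difference of 0.79 at 24 h with a posterior score of 0.999, E2F7 228033_at of 0.67 with a score of 1.00, and CCNE2 205034_at of 0.53 with a score of 0.784. In the same authors' deposited table, the 3 CDC25A probe sets lay at 0.31 to 0.62 and CCND1 at -0.56 (score 0.955) and -0.38 (score 0.461). The sign of the authors' deposited difference equalled that of the labelled arrays for 6 of the 22 member probe sets. No direction at 24 h is drawn here from the labelled arrays alone.

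**Figure D3:**
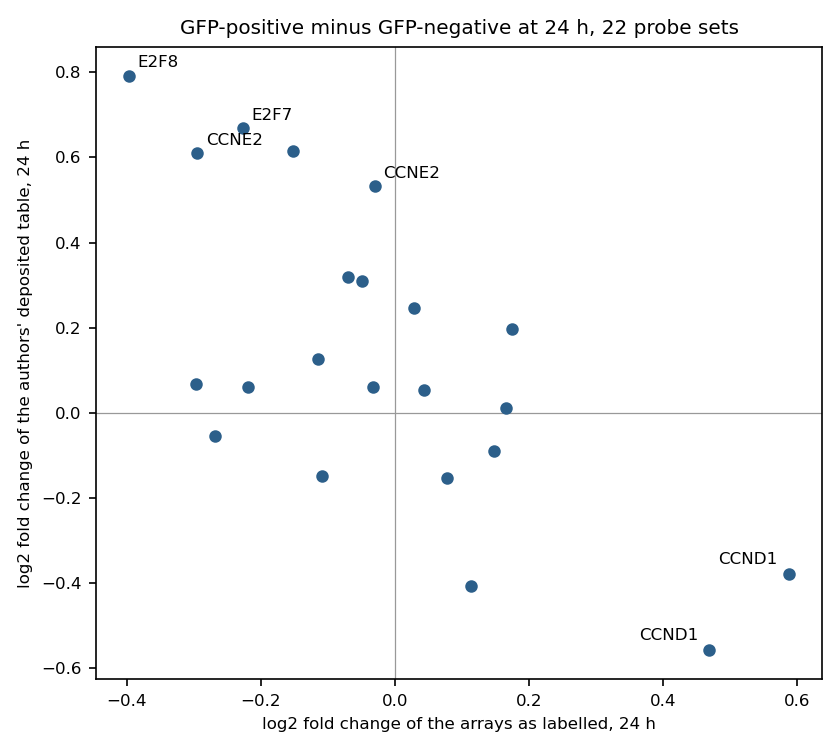
Log2 difference at 24 h of each member probe set in the authors' deposited table (y axis) against the difference of the arrays as labelled (x axis). E2F7 and E2F8 lie at the upper left and both CCND1 probe sets at the lower right, so their signs differ between the 2 sources.

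Beyond the members, pathway genes were read from lists, each gene by its probe set with the highest mean. Of all 20066 genes read in this way, 3.14% were higher and 6.29% lower at 8 h, and 3.02% were higher and 2.1% lower at 16 h. Of 26 G1/S targets of E2F, 5 rose at 8 h and 7 at 16 h in GFP-positive cells, and 0 fell (median log2 0.04 and 0.20, against -0.01 and -0.03 over all genes). DTL, the substrate adaptor of the ligase that destroys CDT1, rose by log2 0.94 (SE 0.119, limma adjusted p = 0.00029) at 8 h and 0.92 at 16 h. The transcript of CDT1, also in this list, rose as well, by log2 0.57 at 8 h and 0.69 at 16 h (limma adjusted p = 0.0333 and 0.0161). ORC1, a subunit of the origin recognition complex, rose by 0.60 at 8 h and 0.81 at 16 h. MCM10, which helps start replication forks, rose by 0.33 and 0.51, and FEN1, the flap nuclease of lagging-strand synthesis, by 0.35 at 16 h. With all 23 arrays 1 of the 26 passed at 8 h (DTL) and 0 at 16 h.

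The G2/M genes lay the other way. Of 10, 7 fell at 8 h and 5 at 16 h, and 0 rose (median log2 -0.53 and -0.33). CENPA, the centromeric histone H3 variant, fell by 1.17 on the log2 scale at 8 h and by 0.69 at 16 h. AURKA, a kinase of the spindle poles, fell by 0.92 and 0.57, UBE2C, a ubiquitin enzyme of mitotic exit, by 0.88 and 0.37, and AURKB, a kinase of the chromosomal passenger complex, by 0.58 and 0.49. With all 23 arrays 5 of the 10 passed at 8 h and 2 at 16 h. In bulk RNA of a sorted population, more cells in a phase and more RNA per cell cannot be told apart, for these genes and for the members.

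Genes that surround cyclin E and CDK2 were read from 4 more lists, set against the same shares of all genes. Of 9 other G1 cyclins and kinases, 2 fell at 8 h and 1 at 16 h, and 0 rose: MYC, a transcription factor of growth, fell by 0.79 on the log2 scale at 8 h and 0.63 at 16 h, and CDK4, the kinase of cyclin D, fell by 0.32 at 8 h. Of 13 regulators of cyclin E, CDK2 and CDC25A, 3 fell at 8 h and 2 at 16 h: BTRC, an F-box protein that marks CDC25A for destruction, fell by 0.70 and 0.59 on the log2 scale, PKMYT1, an inhibitory kinase of CDK1, by 0.51 and 0.56, and CCNF by 0.38 at 8 h. Among 13 genes of the RB family and its partners, LIN37 fell by 0.68 at 8 h, and RBL1, which encodes the RB relative p107, rose by 0.87 and LIN52 by 0.46 at 16 h. Of 7 CDK inhibitors, 0 passed at 8 h and CDKN2B, an inhibitor of CDK4 and CDK6, rose at 16 h (log2 0.93, SE 0.250, limma adjusted p = 0.0435). With all 23 arrays BTRC and LIN37 still passed at 8 h, and none of the genes of these 4 lists passed at 16 h.

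**Figure D4:**
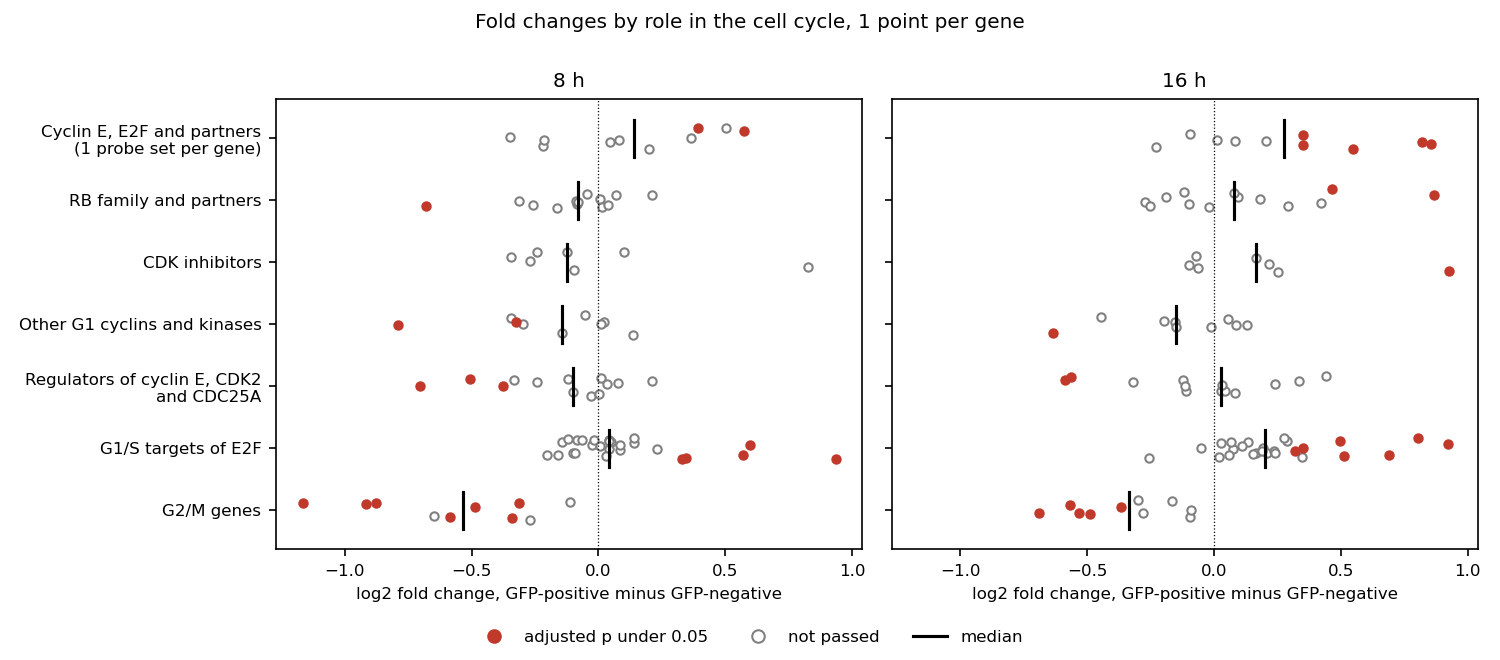
Log2 difference, GFP-positive minus GFP-negative, of each gene of the members and of the pathway lists at 8 h and 16 h (1 point per gene, its probe set with the highest mean), with filled points for adjusted p under 0.05 and a bar at the list's median. The G1/S targets have medians of 0.04 and 0.20 and the G2/M genes of -0.53 and -0.33.

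The genes whose pattern was most like that of the members that passed were taken by Pearson's r over the 17 arrays of 2, 8 and 16 h, each time centred on its own mean. These arrays share the GFP contrast, so r describes the pattern and carries no test. Closest to E2F8 were USP37 (r = 0.972), ATAD2 (0.969) and ZNF177 (0.959). Closest to CDC25A 204695_at were INO80 (0.965), NXF1 and SCG5 (both 0.959). RMI1, which encodes a subunit of a complex that resolves DNA junctions, was among the 3 closest to both CCNE2 205034_at (0.914) and E2F7 228033_at (0.910). E2F2 228361_at lay closest to CYP2C18 (0.942), NEB (0.938) and TPH1 (0.936), and NEB, which encodes nebulin, differed by log2 2.54 at 8 h and 2.87 at 16 h, against 0.39 and 0.35 for E2F2.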

How the data were processed

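Biotin-labelled RNA of HEK293T cells in 8 groups was measured on 23 Affymetrix arrays. The GFP-positive and GFP-negative arrays hold sorted fractions of treated cultures, so the arrays cannot be counted as separate cultures. The authors deposited log2 expression made by RMA, with R 2.9.0 at 24 h and R 2.11.1 at the earlier times, per the submitters' processing notes. The authors also deposited tables with group means, log2 differences and a posterior score from 0 to 1 of a model not given in the sources used here.

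From these values groups were compared within each time by a two-sided test in limma (version 3.58.1, run in R 4.3.3; lmFit, then eBayes): 17 arrays of 2, 8 and 16 h in 1 fit, and the 6 arrays of 24 h in another. The 62 array controls were left out and p-values adjusted (Benjamini-Hochberg) over 54613 probe sets. Probe sets took the symbols of the deposited tables; the sequences came from RefSeq.

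One HEK293 marker is not reported here. Members and lists were chosen with earlier results of these data known. Named are all members, up to 4 genes of each list with the smallest p among those that passed, and the 3 genes most like each member that passed. CDT1 is named in addition, beside DTL. The labels call arrays biological replicates, and the series' design text places the treated experiments on 3 days with controls in duplicate. No label ties an array to a day, so the p-values cover array-to-array spread, which may hold day differences, and the number of arrays limits the precision. Replicate numbers were read as pairs at 8 and 16 h. There, deviations of same-numbered arrays correlated at r = 0.163 to 0.579 over probe sets above the median level. Differently numbered arrays of 8 and 16 h had r of -0.523 to 0.160, so the pair of replicate 2 at 16 h (0.163) was hardly above these. At 2 and 24 h r of same-numbered arrays was -0.06 to -0.38, and no pairs were read. The replicate-block fits nonetheless held blocks at every time, at 2 h for replicates 1 and 2. The spread behind the block p-values of 8 and 16 h therefore draws on the 2 h blocks as well. The fits were first tested on simulated data.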

Additional observations from a re-analysis of the deposited data

How the results depend on the processing

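Of 22 member probe sets 2 passed at 8 h and 6 at 16 h. At 8 h the count was 1 with all 23 arrays in 1 limma fit and 1 with each time fitted alone. Of all probe sets, 2.14% and 3.37% passed in these 8 h fits. The 8 h count was 4 after quantile normalization and 7 with the replicate block, where 7.03% and 9.40% of all probe sets passed. At 16 h it was 0 with all 23 arrays and 1 (E2F8) with each time fitted alone. Of all probe sets, 0.0586% and 1.24% passed in these 16 h fits. Leaving out 1 array at a time gave 1 to 3 at 8 h and 4 to 6 at 16 h. With 1 probe set per gene, 3 of 10 genes passed at 8 h and 5 at 16 h, as did 12.4% and 6.33% of all genes. At 2 h, at 24 h and for the difference between times the count was 0 in every alternative run, and no member call changed sign. The replicate block changed no member call at 16 h. Over all probe sets, 3772 passed at 8 h (1170 with all 23 arrays, 1843 with each time alone, 5131 with the replicate block, and 2027 to 3309 with 1 array left out). At 16 h 2420 passed (32, 675, 3685, and 1178 to 2401). At 2 h 300 passed, 107 with all 23 arrays, 0 with each time alone and 27 to 284 with 1 array left out. The 24 h comparison rests on labels that the authors' deposited table does not share.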
